A study of Rattus norvegicus with 10 samples.

Results

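The homeobox cluster genes were taken as the genes whose symbol begins with Hoxa, Hoxb, Hoxc or Hoxd followed by a number, each read by a probe set that the platform annotation gives to a single gene. The rule found 26 probe sets for 24 genes, out of 31042 probe sets and 14217 named genes on the array: 7 genes of the Hoxa cluster, 6 of Hoxb, 4 of Hoxc and 7 of Hoxd. Hoxc4 and Hoxd3 had 2 probe sets each, and the probe set with the higher mean signal over the 10 arrays was used. One of the 24, Hoxa11-as, is listed in the reference gene table as a long noncoding RNA, and Hoxa3l1 is listed as a protein-coding gene apart from Hoxa3. Other genes of the clusters were not analysed here.

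The samples came from 5 mammary tumours (31D3, 32D1, 37I1, 50I1, 52I4) of female rats of the outbred Sprague-Dawley strain, raised with 1 oral dose of 100 mg/kg of the carcinogen 7,12-dimethylbenz(a)anthracene (DMBA). Each tumour gave a needle biopsy of 0.7 cm by 2.5 mm, taken from rats aged 12 weeks when the tumour measured 2 cm3, and a final sample at sacrifice at 19 weeks. The sample labels call the final sample the total tumour, a name kept here, but the series' design text calls both samples trucut (needle) samples, so how much of the tumour it holds is not settled. No other treatment is given for either group, and all 10 samples carried DMBA tumours. A needle biopsy is a small piece of a tumour and can miss cells found elsewhere in it. Where nothing says that the tumours came from separate rats, p-values measure only the spread between these samples. In the tests between tumours this is the spread between the 2 samples of a tumour, with the moment taken out.

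Hox genes encode transcription factors that bind DNA through a homeodomain, and they lie in 4 clusters in which the order of the genes follows the order of their use along the body axis, with low numbers toward the head and high numbers toward the tail. Genes with the same number in different clusters, called paralogues, have closely related proteins. Adult epithelium and connective tissue keep part of this positional pattern, and in mice the paralogues of group 9 act together in growth of the mammary gland during pregnancy.

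The promoters of 3 genes are shown because these genes, Hoxd8, Hoxd9 and Hoxd10, neighbours in the Hoxd cluster, had signals that went up and down together over the arrays, as described further on. Of the 24 genes, 14 had a promoter in the RefSeq table of build GRCr8, a window of 300 bases running from 250 bases before to 50 bases after the start. The windows are chr3:80014973-80015272 for Hoxd8, chr3:80007756-80008055 for Hoxd9 and chr3:80001697-80001996 for Hoxd10, all on the plus strand. Capitals mark the letters CCAAT on either strand (ATTGG on the strand shown).
Hoxd8: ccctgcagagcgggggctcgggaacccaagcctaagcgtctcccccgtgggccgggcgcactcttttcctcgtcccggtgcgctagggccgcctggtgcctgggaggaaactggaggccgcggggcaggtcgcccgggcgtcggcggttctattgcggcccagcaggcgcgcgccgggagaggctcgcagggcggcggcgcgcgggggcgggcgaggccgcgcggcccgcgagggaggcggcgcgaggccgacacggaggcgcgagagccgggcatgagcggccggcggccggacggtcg
Hoxd9: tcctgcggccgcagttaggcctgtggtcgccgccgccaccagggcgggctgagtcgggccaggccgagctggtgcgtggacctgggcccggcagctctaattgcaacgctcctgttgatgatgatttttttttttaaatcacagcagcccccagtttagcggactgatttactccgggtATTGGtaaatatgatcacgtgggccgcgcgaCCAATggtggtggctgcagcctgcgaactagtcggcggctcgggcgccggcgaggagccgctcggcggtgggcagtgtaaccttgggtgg
Hoxd10: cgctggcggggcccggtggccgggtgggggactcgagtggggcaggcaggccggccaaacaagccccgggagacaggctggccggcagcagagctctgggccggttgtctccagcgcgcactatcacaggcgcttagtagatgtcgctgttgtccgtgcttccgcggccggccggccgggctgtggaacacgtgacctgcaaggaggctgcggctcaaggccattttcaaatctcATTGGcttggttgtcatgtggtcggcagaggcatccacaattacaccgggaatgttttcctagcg
Hoxd9 held CCAAT at 2 places, Hoxd10 at 1 and Hoxd8 at 0, and 37.5% of all 33465 promoters of that length held it. The letters GGGCGG, a GC box, were found in Hoxd8 at 2 places, in Hoxd9 at 1 and in Hoxd10 at 0, against 33.1% of all promoters. Neither TGATNNAT, the letters of a joint site for a Hox protein and a cofactor, nor TATAAA was found in these 3 windows on either strand. The pair CG occurred 49 times in Hoxd8, 27 times in Hoxd9 and 24 times in Hoxd10, where the median over all promoters was 7. None of the letters says whether a factor was bound.

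The values are log2 signals of probe sets, normalized by the authors. Each probe set has its own brightness, so the level of one gene says nothing about the level of another, and only differences of the same gene between arrays are compared. The 40% of probe sets with the lowest mean signal lay at or below a log2 signal of 5.15. By that limit 7 of the 24 genes were above it (29.2%), where 60% of all probe sets are above by construction: Hoxb2, Hoxb3, Hoxb4, Hoxc4, Hoxd8, Hoxd9 and Hoxd10. No Hoxa gene was above it on average, although Hoxa3l1 reached 5.42 on the array where it was highest. In 14 genes no array exceeded the limit. Hoxc9 had a mean of 4.85 and would be lost by such a filter, yet it was above 7.7 on 2 arrays.

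**Figure D1:**
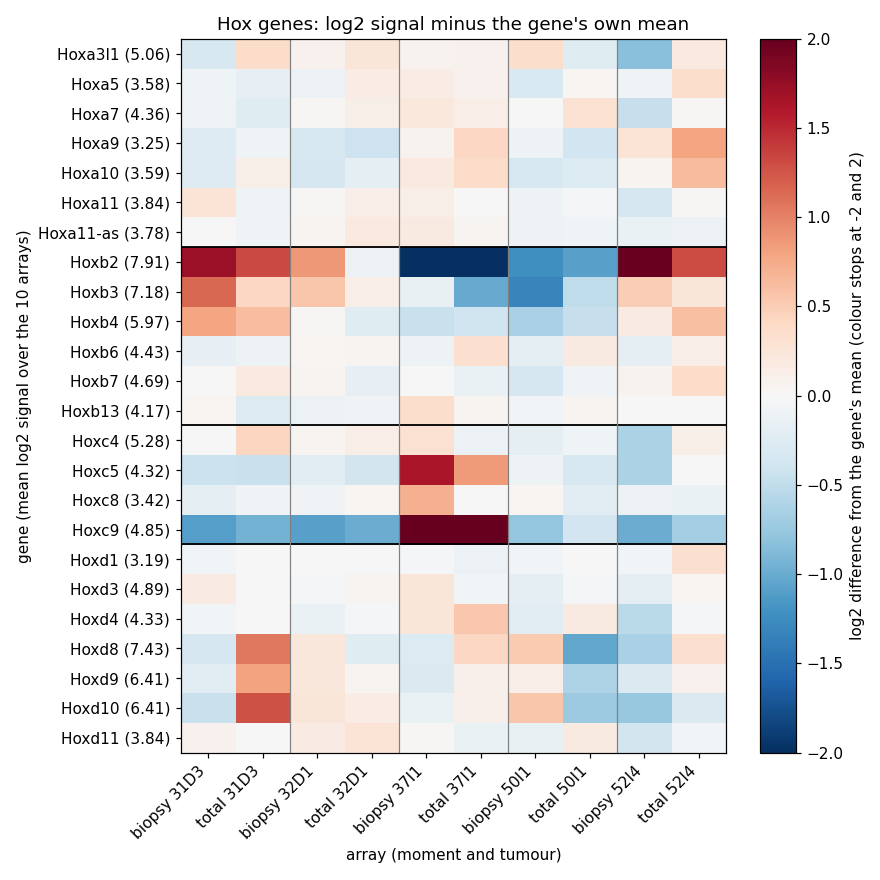
Log2 signal of each Hox gene on each of the 10 arrays minus that gene's own mean (given in brackets), with genes in cluster order and the biopsy and total tumour of each tumour side by side. Hoxc9 and Hoxc5 are high in both samples of 37I1, Hoxb2 is low in both samples of 37I1 and 50I1, and Hoxd8, Hoxd9 and Hoxd10 vary together, for example high in total tumour 31D3 and low in total tumour 50I1.

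The tumours differed from each other most in Hoxb2 and Hoxc9. Hoxc9, a gene of the trunk that in the embryo helps to set the identity of thoracic motor neurons, was higher in tumour 37I1 than in the mean of the other 4 by 4.35 on the log2 scale, and Hoxb2, a gene of the embryonic hindbrain, was 7.89-fold lower in 37I1. The Hoxb2 signals of 37I1, 5.41 and 5.65, lay little above the limit of 5.15, so this fold is approximate. The differences of both genes were seen at 12 and at 19 weeks. These were the only 2 of the 24 genes called in the limma F test between the 5 tumours after Benjamini-Hochberg adjustment over all probe sets, where 0.0838% of all probe sets were called. They were also the 2 genes called when each tumour was set against the mean of the other 4, where 0.0805% of all probe sets were called in some tumour and 0.0174% of all such contrasts were.

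Hoxc9 had a log2 signal of 8.96 in the biopsy and 7.71 in the total tumour of 37I1. The other biopsies were at 3.75 in 31D3, 3.77 in 32D1, 4.07 in 50I1 and 3.85 in 52I4. The other total tumours were at 3.90 in 31D3, 3.85 in 32D1, 4.47 in 50I1 and 4.17 in 52I4. Both samples of 37I1 thus stood above all 8 other arrays, with a gap of 3.24 on the log2 scale between the lower of the pair and the highest of the others. Those 8 values lay under 5.15, where signal above background was not shown, so no fold is given for Hoxc9. Tumour 37I1 minus the mean of the other 4 was 4.35 (SE 0.306), and the limma contrast had an adjusted p of 0.0263 over all probe sets and all 5 such contrasts. For the difference among the 5 tumours the adjusted p in limma was 0.0494, near the threshold of 0.05. Both Hox calls were in 37I1, where 0.0387% of all probe sets were called. The contrasts of 31D3 (0.0129%), 32D1 (0.00966%), 50I1 (0%) and 52I4 (0.0258%) held 0 Hox genes in limma.

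Hoxb2 had a log2 signal of 9.64 in biopsy 31D3, 8.77 in 32D1, 5.41 in 37I1, 6.69 in 50I1 and 9.89 in 52I4. In the total tumours it was at 9.23 in 31D3, 7.80 in 32D1, 5.65 in 37I1, 6.82 in 50I1 and 9.22 in 52I4. The order of the tumours was nearly the same at both moments: 37I1 was lowest, followed by 50I1 and 32D1, while 31D3 and 52I4 were close together at the top and did not differ beyond the spread within a tumour. Tumour 37I1 differed from the mean of the other 4 by -2.98 (SE 0.243; adjusted p = 0.0454 in limma), and the tumours differed with an adjusted p of 0.0297 in the F test. The tumour accounted for 97.8% of the sum of squares of Hoxb2 and 97.1% of that of Hoxc9 once the moment was taken out, against a median of 62.3% over the 24 genes and 56.0% over all probe sets.

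Both calls depended on having all 5 tumours. With any tumour left out neither gene was called: leaving out 31D3 gave an adjusted p in the limma F test of 0.0901 for Hoxb2 and 0.0925 for Hoxc9, leaving out 32D1 gave 0.0644 and 0.0826, 37I1 gave 0.284 and 0.583, 50I1 gave 0.0668 and 0.0823, and 52I4 gave 0.196 for both. Hoxb2 in 37I1 against the other 4 also missed the threshold with array weights (adjusted p = 0.0809 in limma), quantile normalization (0.0521), the dimmest 40% left out (0.0599) and the mean of a gene's probe sets (0.0696), and Hoxc9 with the last of these (0.0527). Over all alternatives that adjusted p ran from 0.0249 to 0.239 for Hoxb2 and from 0.0115 to 0.169 for Hoxc9. The sizes moved less when a tumour was left out, with 37I1 against the others between 4.30 and 4.45 for Hoxc9 and between -2.63 and -3.56 for Hoxb2.

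**Figure D2:**
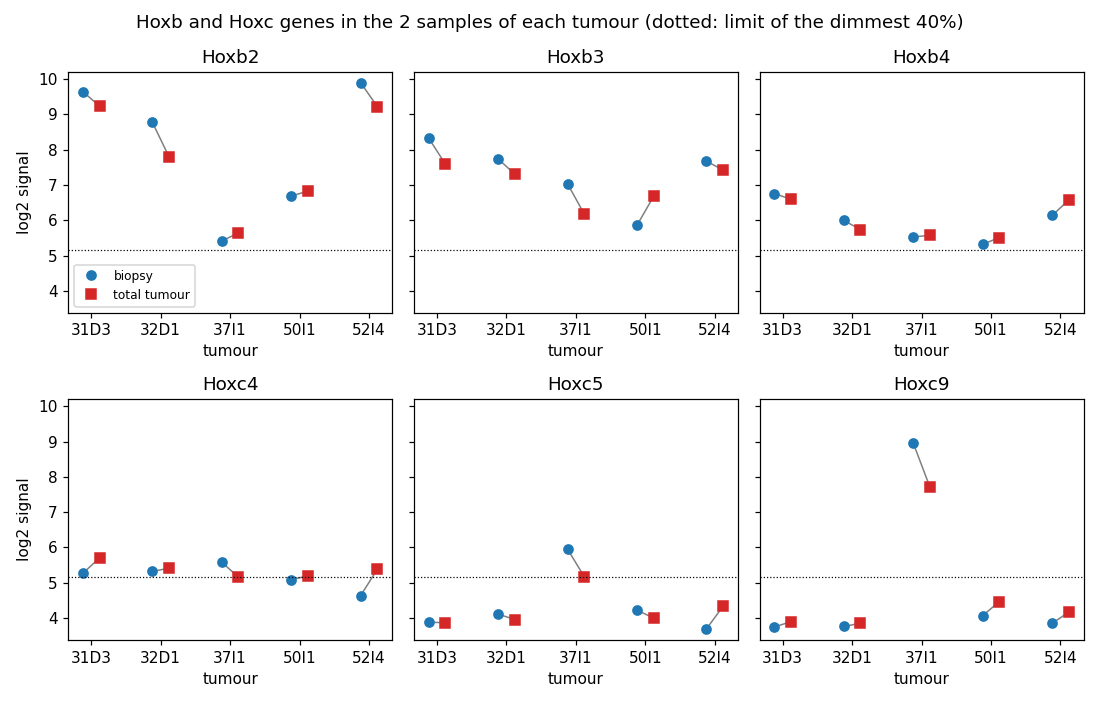
Log2 signal of 3 Hoxb and 3 Hoxc genes in the biopsy (blue circle) and total tumour (red square) of each tumour, with a line joining the samples of a tumour and a dotted line at 5.15, the limit of the dimmest 40% of probe sets. Hoxc9 sits at 8.96 and 7.71 in 37I1 and between 3.75 and 4.47 elsewhere, and Hoxb2 is lowest in 37I1, at 5.41 and 5.65.

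Hoxb3 and Hoxb4, the neighbours of Hoxb2 at the head end of the cluster, had tumour means in a related order, but neither was called. Hoxb3, which acts in the pharyngeal arches and hindbrain, was at 8.33 in biopsy 31D3, 7.74 in 32D1, 7.03 in 37I1, 5.86 in 50I1 and 7.67 in 52I4, and its total tumours were at 7.59, 7.31, 6.18, 6.68 and 7.42 in that order of tumours. Hoxb4, known for its role in renewal of blood stem cells, was at 6.76, 5.99, 5.53, 5.32 and 6.14 in the biopsies and at 6.59, 5.74, 5.57, 5.51 and 6.57 in the total tumours. In Hoxb2, Hoxb3 and Hoxb4 alike, 37I1 and 50I1 had the lowest 2 tumour means and 31D3 and 52I4 the highest 2. The share of all probe sets with this order was not computed, so the order is a description only. For Hoxb3, however, the means of 52I4 (7.55) and 32D1 (7.52) were nearly equal, and the biopsies had the reverse order. The span between the highest and the lowest tumour mean was 4.03 for Hoxb2, 1.69 for Hoxb3 and 1.26 for Hoxb4. The F test in limma gave Hoxb4 an unadjusted p of 0.00165 (adjusted p = 0.224) and Hoxb3 one of 0.0154 (adjusted p = 0.428).

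The other Hoxb genes were dim. Hoxb7 had 37I1 and 50I1 lowest and 31D3 and 52I4 highest as well, with tumour means from 4.49 to 4.90. Its means in 37I1 (4.63) and 32D1 (4.64) were nearly equal, however, and the order is again a description only. Hoxb6 and Hoxb13 had their highest mean in 37I1 and their lowest in 31D3. Hoxb6, active in the trunk and in blood progenitors, stayed between 4.24 and 4.76 on the 10 arrays, Hoxb7, often studied in breast cancer cells, between 4.36 and 5.05, and Hoxb13, best known from the prostate, between 3.90 and 4.51. Their F tests had adjusted p values in limma of 0.881, 0.746 and 0.790.

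In the Hoxc cluster 37I1 was the highest tumour for Hoxc5, Hoxc8 and Hoxc9, 3 of the 4 genes, though with unequal size and support. Hoxc5, a gene of the embryonic trunk, was at 5.95 in the biopsy and 5.18 in the total tumour of 37I1. The other biopsies were at 3.89 in 31D3, 4.11 in 32D1, 4.23 in 50I1 and 3.69 in 52I4. The other total tumours were at 3.87, 3.96, 4.0 and 4.34. Both samples of 37I1 thus stood above the 8 others. In 25.5% of all probe sets both samples of some tumour lay above or below all 8 other arrays. For Hoxc5 the 8 other values lay under 5.15, where signal above background was not shown. The difference of 37I1 from the other 4 was 1.55 (SE 0.238), with an adjusted p of 0.198 in limma, and the F test had an unadjusted p of 0.00471 (adjusted p = 0.301). Hoxc8, the gene next to Hoxc9 among those measured, was at 4.12 in biopsy 37I1 but at 3.41 in total tumour 37I1, within the range of the others, which was 3.21 to 3.45. Hoxc4, which in B cells takes part in antibody class switching, gave different answers from its 2 probe sets. The brighter one was at 5.58 in biopsy 37I1 and 5.16 in the total tumour, inside the range of 4.64 to 5.71 of the 8 others. The dimmer one, with a mean of 4.15, was at 5.79 and 4.64 in 37I1 and between 3.46 and 4.45 in the others. Its difference of 37I1 from the others was 1.33 (SE 0.326; adjusted p = 0.416 in limma).

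Some markers of cell types were also highest in 37I1. Of the lists, only that of adipocytes had all its measured markers, 4 of 4, with their highest tumour mean in 37I1. These 4 were dim, and 0 of them had a mean above 5.15. Their mean in total tumour 37I1 was 4.78, and in total tumour 52I4 it was 4.57, above that of biopsy 37I1. Of the 2 measured nerve and Schwann cell markers, S100b had its highest tumour mean in 37I1 and Sox10 in 52I4. The mean log2 signal of 7 luminal epithelium markers was 11.80 and 11.89 in 37I1 and between 11.19 and 11.68 on the other arrays. Elf5, a regulator of alveolar cells, was at 8.98 and 10.97 in 37I1 and from 5.18 to 9.55 elsewhere, whereas the keratins Krt8 and Krt18 were highest in 32D1 and Krt19 in 52I4. The mean of 5 of 6 basal markers was 10.77 and 10.27 in 37I1 against 9.82 to 10.12. Of these, Acta2, Myh11 and Oxtr, contractile cell genes, had their highest tumour mean in 37I1, and the basal keratins Krt5 and Krt14 their lowest. All 7 luminal markers and 4 of the 5 basal ones lay above the signal limit. So did all 7 fibroblast, 3 endothelium and 4 white blood cell markers that were measured, and 60% of all probe sets by construction. Passing that limit is therefore no test of the labelled tissue. The skeletal muscle actin Acta1 was at 11.93 and 9.48 in 37I1, at 8.13 in biopsy 50I1 and from 4.04 to 4.91 on the other arrays. The other measured muscle markers, Ckm and Myh4, were no higher in 37I1 than elsewhere. The mean of 7 fibroblast markers in 37I1 was 8.29 in the biopsy, the lowest of the 10 arrays, and 10.71 in the total tumour, within the range of the others. The part of these markers in the Hoxc9 and Hoxb2 values was not tested. In bulk tissue, fewer cells of a type and less RNA per cell cannot be told apart.

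Among the 24 genes, 8 had an unadjusted p under 0.05 in the F test between tumours (33.3%), where 9.06% of all probe sets did. Beside Hoxb2, Hoxc9, Hoxb4, Hoxc5 and Hoxb3 these were Hoxa9, Hoxa10 and Hoxd4, with adjusted p values of 0.447, 0.443 and 0.529 in limma. Hoxa9, a gene of the posterior trunk and of blood progenitors, and its neighbour Hoxa10, which acts in the uterus, had their highest tumour mean in 52I4 and the next in 37I1. Hoxa9 was, in biopsy and total tumour, at 3.53 and 4.05 in 52I4, 3.33 and 3.67 in 37I1, 3.0 and 3.16 in 31D3, 2.94 and 2.84 in 32D1 and 3.15 and 2.88 in 50I1. Hoxa10 was at 3.64 and 4.23 in 52I4, 3.79 and 3.96 in 37I1, 3.33 and 3.72 in 31D3, 3.26 and 3.42 in 32D1 and 3.28 and 3.32 in 50I1. Both genes lay under the limit of 5.15 throughout, so these are differences among dim signals. Hoxd4, which marks a boundary in the hindbrain and answers to retinoic acid, was at 4.58 and 4.87 in 37I1, 4.28 and 4.33 in 31D3, 4.21 and 4.30 in 32D1, 4.13 and 4.52 in 50I1 and 3.80 and 4.32 in 52I4.

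For 7 of the 24 genes (29.2%) both samples of some tumour lay above or below all 8 other arrays, where 25.5% of all probe sets showed this. That count is near the background and is no result about Hox genes as a group. The gap was 3.24 for Hoxc9, 1.04 for Hoxb2 and 0.84 for Hoxc5, and at most 0.06 for the other genes with one. Tumour 37I1 had the highest mean of the 5 tumours in 8 genes, 31D3 in 7, 52I4 in 6, 32D1 in 3 and 50I1 in 0. Tumour 52I4 had the lowest in 9 genes and 50I1 in 8. Among the 7 genes above the signal limit, 31D3 was highest in 6 and 50I1 lowest in 4. In Hoxd8, Hoxd9 and Hoxd10, which are among these 7, only 13.8% to 30.1% of the sum of squares lay between tumours. The shares of all probe sets highest or lowest in each tumour were not computed, so these counts are a description only.

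Hoxd8, Hoxd9 and Hoxd10 behaved differently from Hoxb2 and Hoxc9: their signals varied widely over the arrays but not by tumour. They were chosen for description after their values were seen. Hoxd9 is one of the group 9 paralogues named above, Hoxd8 is a gene of the trunk, and Hoxd10 acts in the hindlimb and has been studied as a brake on migration of breast cells. Hoxd8 was at 7.10 in biopsy 31D3, 7.66 in 32D1, 7.16 in 37I1, 7.95 in 50I1 and 6.77 in 52I4, and at 8.48, 7.18, 7.83, 6.39 and 7.74 in the total tumours. Hoxd9 was at 6.21, 6.63, 6.11, 6.54 and 6.12 in the biopsies and at 7.22, 6.47, 6.50, 5.79 and 6.50 in the total tumours. Hoxd10 was at 5.96, 6.66, 6.27, 6.97 and 5.65 in the biopsies and at 7.69, 6.56, 6.51, 5.67 and 6.13 in the total tumours. Total tumour 31D3 was the highest array for all 3 genes. Total tumour 50I1 was the lowest for Hoxd8 and Hoxd9 and the next to lowest, after biopsy 52I4, for Hoxd10. The tumour accounted for 13.8%, 30.1% and 29.4% of their sums of squares, and their F tests had adjusted p values of 0.968, 0.886 and 0.883 in limma.

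In each of these 3 genes the total tumour was higher than the biopsy in 31D3, 37I1 and 52I4 and lower in 32D1 and 50I1. The differences of Hoxd8 were 1.39 in 31D3, -0.48 in 32D1, 0.68 in 37I1, -1.56 in 50I1 and 0.97 in 52I4. Those of Hoxd10 were 1.72, -0.09, 0.24, -1.30 and 0.47. The mean of the 7 fibroblast markers had the same signs, with differences of 0.65, -0.38, 2.42, -1.44 and 1.49. Of the 24 genes, Hoxd8, Hoxd9, Hoxd10 and Hoxa9 shared the sign of the fibroblast markers in 5 of 5 tumours, as 4.56% of all probe sets did. The sizes had another order, as the largest difference of the markers was in 37I1 and those of Hoxd8, Hoxd9 and Hoxd10 upward were in 31D3. The 3 measured endothelium markers had a mean with the same signs too, with differences of 0.37, -0.52, 0.44, -0.96 and 1.04. Marker by marker, 5 of 7 fibroblast genes and 1 of 3 endothelium genes, Pecam1, had these signs in 5 of 5 tumours. The mean of the 4 measured white blood cell markers had another sign in 52I4 only, with differences of 0.73, -0.32, 1.82, -1.65 and -0.62. No other list of cell type markers had a mean with the fibroblast signs in 5 of 5 tumours. The fibroblast mean ran from 8.29 to 11.89 in the biopsies and from 10.45 to 11.86 in the total tumours, and all 7 markers were measured. The part of fibroblast, endothelium and white blood cell content in the Hoxd signals was not tested.

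**Figure D3:**
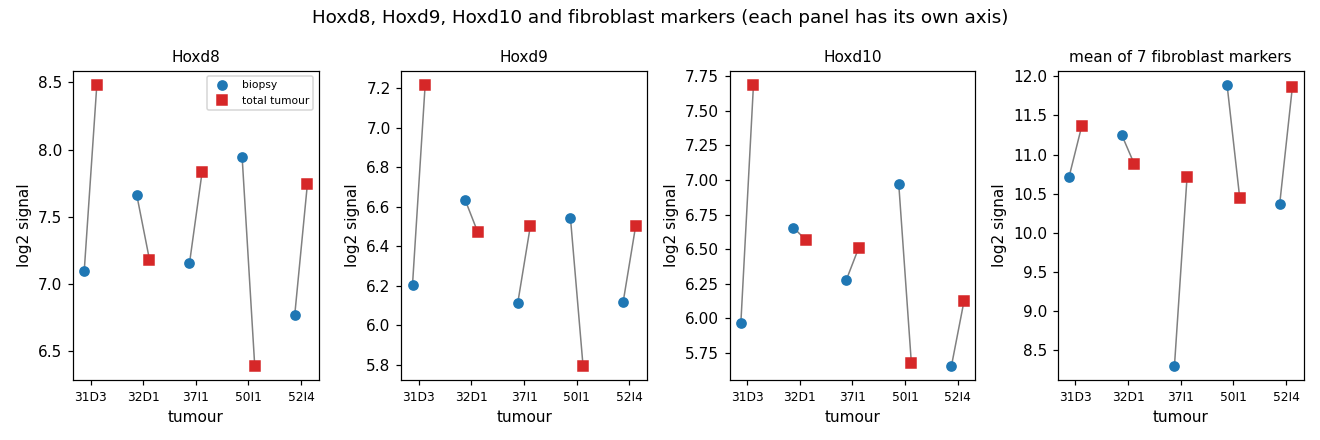
Log2 signal of Hoxd8, Hoxd9 and Hoxd10 and the mean log2 signal of 7 fibroblast markers in the biopsy (blue circle) and total tumour (red square) of each tumour, each panel on its own axis that does not start at 0. In all 4 panels the line rises in 31D3, 37I1 and 52I4 and falls in 32D1 and 50I1.

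The remaining Hoxd genes were dim. Hoxd1, known from sensory neurons, stayed between 3.07 and 3.52, Hoxd3, a gene of the neck skeleton, between 4.69 and 5.13, or 3.68 and 4.10 by its other probe set, and Hoxd11, a gene of the forearm, between 3.48 and 4.11. The same held for Hoxa5, a regulator of p53 that has been studied in breast cancer, between 3.28 and 3.93, for Hoxa7, which acts in the trunk, between 3.89 and 4.66, for Hoxa11, a gene of limb and uterus, between 3.50 and 4.11, and for Hoxa11-as between 3.64 and 3.98. Hoxa3l1 lay between 4.23 and 5.42. None of these 8 genes had an unadjusted p under 0.05 in either test.

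The design set each total tumour against the biopsy of the same tumour, to ask how a tumour at the end differs from its early state. No Hox gene passed that comparison. With the tumour as a block in limma, 0 of 24 genes and 0% of all probe sets had an adjusted p under 0.05, and 0 of the 24 passed in the methods' paired t-test after Benjamini-Hochberg adjustment. At an unadjusted p under 0.05 there were 3 Hox genes (12.5%) in limma and 2 in the methods' t-test, where 6.86% of all probe sets had such a p in limma and 2.24% had it with the total tumour higher. The mean was higher in the total tumours for 17 genes and lower for 7, where 54.6% of all probe sets were higher, and the median difference was 0.09 on the log2 scale against 0.02 over all probe sets. The 7 Hoxd genes were all on the higher side, by 0.00367 to 0.27, but without tumour 31D3 Hoxd8 (-0.10), Hoxd9 (-0.034) and Hoxd10 (-0.17) were on the lower side. The largest difference in size was that of Hoxb2, -0.34 (SE 0.194), with means of 8.08 ± 1.95 (SD, n = 5) and 7.74 ± 1.55 (SD, n = 5).

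The 3 genes with an unadjusted p under 0.05 were dim, and all 3 were higher in the total tumour in 5 of 5 pairs, where 8.29% of all probe sets went one way in 5 of 5. A small paired p favours such agreement, so the direction adds nothing to it. Hoxd4 had a biopsy mean of 4.20 ± 0.28 and a total tumour mean of 4.47 ± 0.24 (SD, n = 5 each) and differed by 0.27 (SE 0.0999; adjusted p = 0.682 in limma). Hoxa10 was at 3.46 ± 0.24 and 3.73 ± 0.38 (SD, n = 5 each), a difference of 0.27 (SE 0.105; adjusted p = 0.704 in limma). Hoxb6 was at 4.31 ± 0.10 and 4.55 ± 0.15 (SD, n = 5 each), a difference of 0.24 (SE 0.0973; adjusted p = 0.713 in limma). Biopsies of Hoxb6 were at 4.27 in 31D3, 4.47 in 32D1, 4.33 in 37I1, 4.25 in 50I1 and 4.24 in 52I4, and the total tumours at 4.34, 4.49, 4.76, 4.61 and 4.57, so the groups overlapped. Tumour 52I4 was the one in which most Hox genes were higher at the end, 21 of 24 with a median difference of 0.39, against 0.03 over all probe sets in that tumour. In 31D3 13 genes were higher, in 32D1 15, in 37I1 10 and in 50I1 17. Median differences in these tumours were 0.05, 0.06, -0.08 and 0.10, against 0.002, 0.02, -0.05 and 0.04 over all probe sets. The share of all probe sets that were higher in each tumour was not computed. Most of the 24 genes were dim, so the counts per tumour are a description only.

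**Figure D4:**
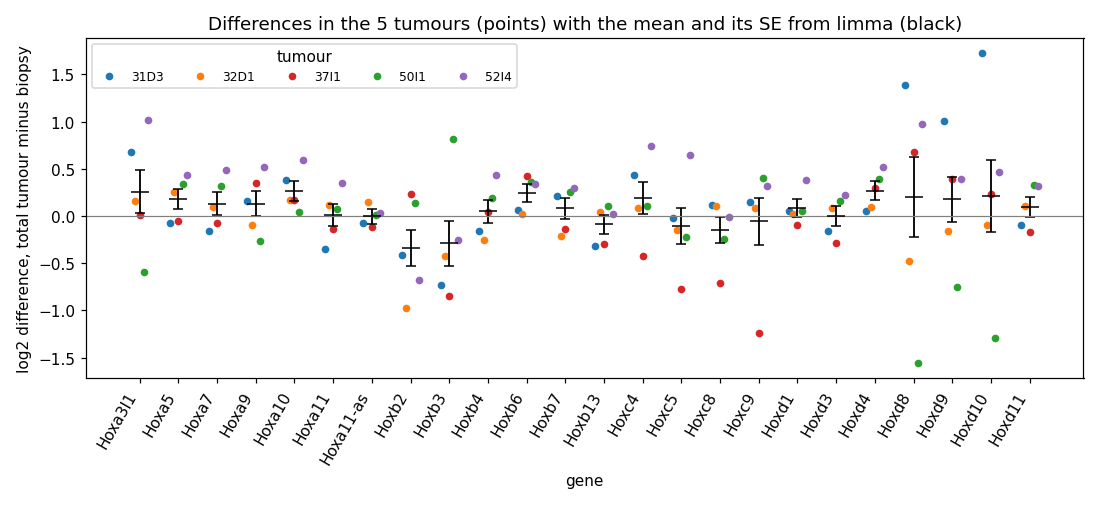
Log2 difference of total tumour minus biopsy for each of the 24 Hox genes, with 1 coloured point for each of the 5 tumours and the limma mean with its standard error in black. The means lie between -0.34 and 0.27, and the points of Hoxd8 spread from -1.56 to 1.39.

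Partners and regulators of Hox genes were read from 5 lists. In limma 0 of their 81 measured members were called in either test. Over all probe sets, 9.06% had an unadjusted p under 0.05 between tumours, 2.24% had one with the total tumour higher and 4.61% with it lower, and 54.6% were higher in the total tumour by the mean. Genes named here for their p between moments were picked with those values in view. The cofactors of the TALE class, which bind DNA beside Hox proteins, had 9 of 10 genes measured, with 5 higher and 4 lower in the total tumours. Meis1, one of these cofactors, differed by -0.32 (SE 0.153) and had an adjusted p of 0.452 in limma between tumours, and 1 member had an unadjusted p under 0.05 there. Polycomb genes, which keep silent Hox genes off, had 19 of 22 measured, with 8 higher and 11 lower and 3 at an unadjusted p under 0.05 between tumours. Phf1, a Polycomb partner protein, had the smallest of these (adjusted p = 0.453 in limma). Between moments 1 Polycomb gene had an unadjusted p under 0.05, Phf19, a partner of the same kind, which differed by 0.67 (SE 0.148; adjusted p = 0.549 in limma; higher in 5 of 5 tumours). Ezh2, the methyltransferase of the complex, differed by 0.14 (SE 0.129). Trithorax and related genes, which keep Hox genes on, had 13 of 14 measured, with 3 higher and 10 lower, 2 of the 10, Kmt2a and Kmt2b, at an unadjusted p under 0.05, and 0 had such a p between tumours. Kmt2a, the founding member, differed by -0.42 (SE 0.143; adjusted p = 0.654 in limma). Of 17 measured genes of retinoid signalling and other axial inputs 12 were higher and 5 lower, 3 of the 12 (Aldh1a3, Cyp26b1 and Crabp2) at an unadjusted p under 0.05, and 4 had such a p between tumours. Gdf11, a growth factor that shifts Hox domains along the trunk, had an adjusted p of 0.176 in limma between tumours. Of 23 measured homeobox genes outside the clusters 13 were higher and 10 lower, 1 of the 13 (Dlx5) at an unadjusted p under 0.05, and 5 had an unadjusted p under 0.05 between tumours. Emx2, a gene of brain and urogenital tract, had the smallest of these (adjusted p = 0.176 in limma).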

How the data were processed

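The authors normalized the scanner values of 10 Affymetrix rat genome expression arrays with RMA, per the submitters' processing notes. The deposited log2 signals, 1 column per array, were used without further transformation. Their range, 2.34 to 14.26, showed the log2 scale. RMA forces arrays onto 1 distribution, so a shift shared by most transcripts is removed. Its version is not given in the sources used here. Array medians lay between 5.99 and 6.11, and no 2 arrays held the same values (highest correlation 0.989). Precision is limited by having 10 arrays.

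Control probe sets (57 of 31099) were dropped, which left 31042. The platform annotation names 1 gene for 20826 of these, several for 436 and none for 9780. Symbols were updated by gene identifier for 20758 probe sets through the GRCr8 gene table. No filter on signal was used, so that every Hox gene had a test.

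All probe sets were fitted with lmFit and eBayes (limma 3.58.1, R 4.3.3) with terms for moment and tumour. Total tumour minus biopsy, an F test over the 5 tumours and each tumour against the mean of the other 4 were tested, with Benjamini-Hochberg adjustment over all probe sets (and over all 5 contrasts together) at 0.05. Samples were paired by the tumour names in the labels. Paired samples' deviations from their group's mean correlated at 0.18, 0.28, 0.30, -0.18 and 0.32 for 31D3, 32D1, 37I1, 50I1 and 52I4. The highest correlation with another tumour was 0.19, 0.13, 0.26, 0.31 and 0.06 in that order. It exceeded the correlation of the pair in 31D3 and 50I1. The 2 samples of a tumour are the only repeat of it. Arrays of a group carry consecutive numbers in the titles, so array batch and moment cannot be told apart.

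The genes, lists and marker sets were chosen with earlier results of these data known. By the rule for named genes, values were given for the 8 Hox genes with the smallest p between tumours, as fewer than 5 were called, for the 4 with the smallest p between moments, for up to 3 genes of each list by smallest p, and for Ezh2, Meis1 and Kmt2a. The steps were checked on simulated data. Promoters came from RefSeq. Figures were drawn with matplotlib 3.10.9.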

Additional observations from a re-analysis of the deposited data

Results flagged for a closer look

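In 48 groups of 5 arrays (24 genes at 2 moments) the highest or lowest sample was compared with its nearest neighbour relative to the range of the group. In 5 groups (10.4%) a sample lay far from the others by a cutoff set nominally at 5%. The share over all probe sets was not computed, and the genes share the same arrays. The count is therefore no result about Hox genes as a group. The 5 flagged groups concerned 4 genes. Hoxc9 was far above the others in biopsy 37I1, at 8.96, and in total tumour 37I1, at 7.71. Hoxc5 was far above the other biopsies in 37I1, at 5.95, and Hoxc8 likewise in biopsy 37I1, at 4.12. Hoxb7 was below the other biopsies in 50I1, at 4.36, where the next was 4.68.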

How the results depend on the processing

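The count of 0 Hox genes called for total tumour minus biopsy was the same in all alternatives run, including 0 with no replicate block and 0 whichever tumour was left out. At an unadjusted p, limma gave 0 to 3 Hox genes over the alternatives. Between the 5 tumours, the 2 called genes, Hoxb2 and Hoxc9, stayed called with trend and robust estimation, quantile normalization, array medians subtracted and no term for the moment, and the count was 2 at an adjusted p under 0.1. With the dimmest 40% left out 1 gene was called, Hoxb2, since Hoxc9 is not among the 7 Hox genes kept. With array weights 1 was called, Hoxb2 (Hoxc9 adjusted p = 0.0584 in limma). With the mean of a gene's probe sets 0 were called, with adjusted p values of 0.0660 and 0.0800 and 8 genes at an unadjusted p under 0.05. That setting tests 14217 named genes only, of which 5 were called, and both genes have 1 probe set. Leaving out a tumour gave 0 Hox calls each time, with 5 to 8 Hox genes at an unadjusted p under 0.05. Over all probe sets it left 0 to 7 calls, where the main fit had 26. For each tumour against the other 4 the 2 calls became 0 with the dimmest 40% left out (10 at an unadjusted p under 0.05), 1 with array weights and 1 with quantile normalization (Hoxb2 lost in both), 0 with the mean of probe sets (25) and 0 with any tumour left out (10 to 23). Over all probe sets or genes tested, the contrast calls numbered 27 in the main fit. They were 16 with the dimmest 40% left out, 4 with the mean of probe sets and 0 to 17 with a tumour left out. The cause of these changes was not tested further. Signs turned only in differences that had not passed: for Hoxc9 the difference of total tumour minus biopsy, -0.06, became 0.063 with array weights, and without a tumour it ran from -0.17 to 0.24. Without a tumour Hoxd8 ran from -0.10 to 0.64, Hoxd9 from -0.034 to 0.41 and Hoxd10 from -0.17 to 0.58, each lowest without 31D3 and highest without 50I1. Most Hox probe sets were dim, which limits what small differences can show.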

Other observations

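Over the 24 Hox genes together, with the mean of each moment taken out, the nearest total tumour to a biopsy was its own for 32D1, 37I1 and 52I4, 3 of 5 tumours. The nearest biopsy to a total tumour was its own for 32D1, 37I1 and 50I1. The root mean square distance between the samples of a tumour was 0.26 in 32D1, 0.38 in 52I4, 0.41 in 37I1, 0.48 in 31D3 and 0.62 in 50I1 on the log2 scale. These values are a description, as genes with large differences weigh most in them. Within 50I1, total tumour minus biopsy was -1.56 for Hoxd8 and -1.30 for Hoxd10, against 0.14 for Hoxb2 and 0.40 for Hoxc9.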
